A study of Mus musculus with 4 samples.

Results

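Genes of the splicing machinery and of the heterogeneous nuclear ribonucleoproteins (hnRNPs) were followed in mouse hippocampal area CA1 over the hours after foot shock. They were chosen by a rule on the gene symbol, with earlier results of these data known. It covers all probe sets with a single symbol that starts with Snrp, Srsf, Sf3a, Sf3b, Hnrnp, Prpf or U2af, without pseudogenes. Each probe set is a block of short oligonucleotides on the array, designed to measure 1 transcript. The rule took 70 probe sets for 51 genes, of 10833 probe sets with 1 symbol for 8251 genes. Another 7 probe sets with a matching symbol carried several symbols, and 1 belonged to a pseudogene, so these 8 were not used. All samples came from young male C57BL/6J mice in the condition the labels call shock alone. The animals were in the context 2 h before the paradigm and received 3 shocks of 0.5 mA, each lasting 1 s. They stayed in the chamber for 1 h after the last shock. Tissue was collected at 1, 2, 4 or 6 h, and the total RNA was read on 1 Affymetrix array per time, 4 in all. The number of animals in a sample is not stated in the labels, and unshocked animals were not analysed here. With 1 array per time there is no replicate check, no p-value is given, and differences between times describe these 4 arrays.

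Pre-mRNA splicing removes introns in a large particle, the spliceosome, that is built anew on each intron. Small nuclear ribonucleoproteins (snRNPs) hold, on most U RNAs, a ring of Sm proteins. U2AF and the SF3 complexes mark the 3' splice site and the branch point, and many Prpf proteins drive later steps. SR proteins and hnRNPs bind the transcript itself and set how often alternative exons are used, often in opposite directions. Neurons splice many transcripts of channels, receptors and adhesion proteins alternatively, and activity alters some of these choices.

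Values are intensities on a linear scale, and those under 100.8, the 40th percentile of all values and called the floor below, were treated as bounds. The 4 values of a probe set are given in the order 1, 2, 4 and 6 h. Of the 70 probe sets, 55 were above the floor on all 4 arrays, 5 on some and 10 on none, and these 55 cover 45 of the 51 genes. Of the CA1 pyramidal neuron markers, 7 of 9 probe sets were above the floor on all arrays, while both probe sets of Camk2a, a kinase abundant in these neurons, were below it at 2, 4 and 6 h. RNA quality differed on the array at 2 h, where the 3' end of actin read 2.70 times its 5' end, against 1.74 to 1.84 elsewhere, and that of Gapdh 4.82 times, against 3.24 to 3.98, a sign of shorter or less complete RNA copies. The array at 6 h held choroid plexus transcripts, with Ttr at 4482 against 89.9 to 198 before. In bulk tissue, fewer cells of a type and less RNA per cell cannot be told apart.

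The commonest course among splicing factor and hnRNP genes had its lowest value at 2 h or its highest at 4 h. Of the 55 probe sets above the floor on all arrays, 29 had their lowest value at 2 h, which is 52.7%, where 26.7% of all 6442 such probe sets did. Their highest value lay at 4 h for 25 of 55, or 45.5%, beside 23.1% of all. Both held for 14 of them, against 9.14% of all probe sets. The opposite extremes were the rarest, with 5 members lowest at 4 h (24.3% of all probe sets) and 8 highest at 2 h (28.7% of all). At 1 h, 12 were lowest and 12 highest, close to the 22.8% and 24.8% of all probe sets. At 6 h, 9 were lowest and 10 highest, beside 26.2% and 23.5% of all. A highest or lowest value can be a near tie. The value at 4 h was 1.00-fold the next highest for Hnrnpm and 1.01-fold for U2af2 and Prpf31, against 1.71-fold for Snrpd3 and 1.47-fold for Sf3a3. That at 2 h was 1.01-fold below the next lowest for Snrpg, against 1.83-fold for Hnrnpll.

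**Figure D1:**
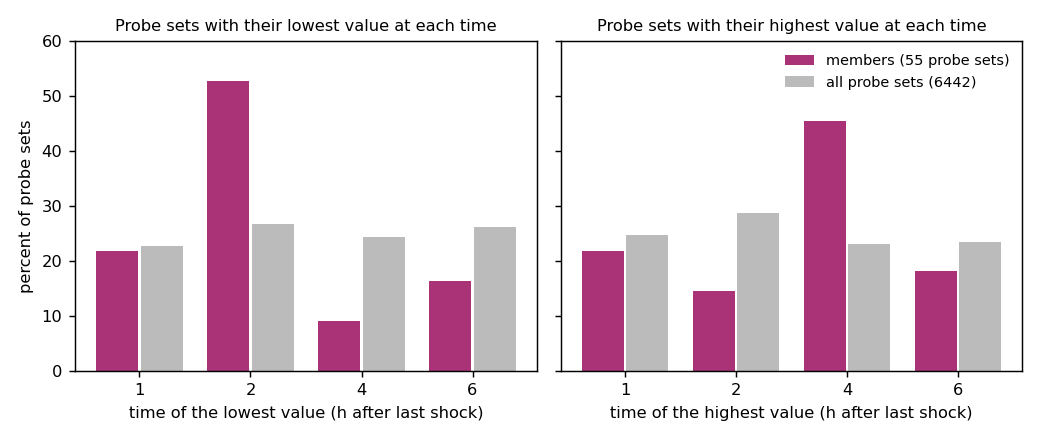
Bars give the percent of probe sets whose lowest (left) or highest (right) intensity lay at each time, for the 55 splicing factor and hnRNP probe sets above the floor on all 4 arrays and for all 6442 such probe sets. The members stand at 52.7% for a lowest value at 2 h and at 45.5% for a highest value at 4 h.

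The size of this pattern was small for most genes. For scale, the log2 ratios of 4 h to 6 h over all probe sets had a standard deviation of 0.26, estimated from the median deviation. Over the 58 members with a mean intensity above the floor, the median difference (log2) between 2 h and the mean of the other times was −0.15, with 41 below and 17 above. The median over all 7427 probe sets was 0.02, and 47.3% of them were below and 52.7% above. At 4 h the members' median was 0.13, with 43 above and 15 below, against a median of −0.01 over all, of which 48.2% were above and 51.8% below. The members' median for 1 h was −0.01, with 27 above and 31 below (52.4% and 47.6% of all), and for 6 h it was 0.04, with 36 above and 22 below (48.4% and 51.6% of all). Set directly against each other, 4 h lay above 2 h by a median of 0.19, with 45 higher and 13 lower, where all probe sets had −0.02, with 47.0% higher and 52.2% lower. The 2 h array in this comparison is also the one with the actin ratio of 2.70, and the part of RNA quality in the difference was not tested. The count highest at 4 h was 27 of 56 without the 2 h array, among members above the floor on the other 3, where 31.7% of all probe sets were highest at 4 h. Without the 2 h array the members' median at 4 h was 0.08.

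**Figure D2:**
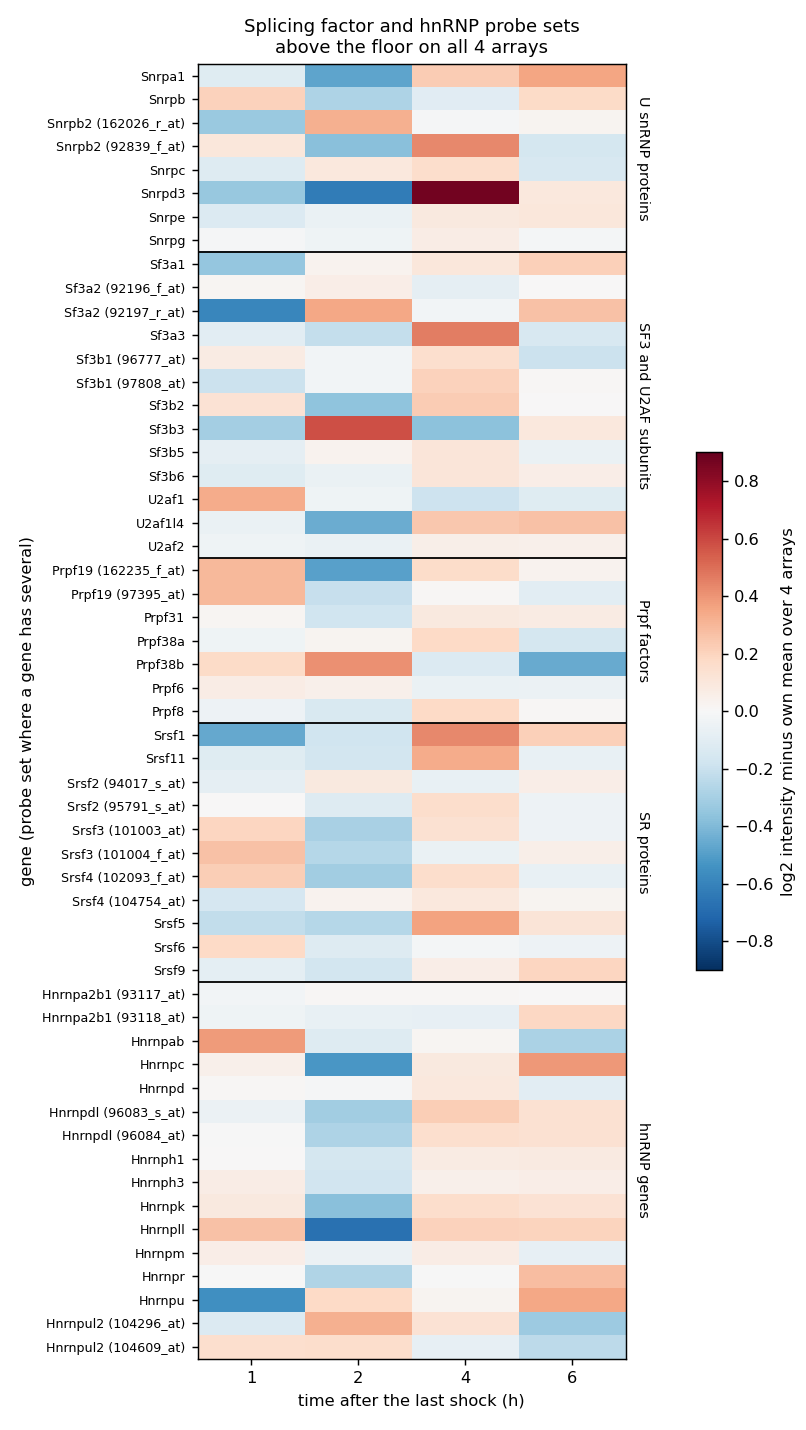
Each row is a probe set above the floor on all 4 arrays and each column a time, with colour for the log2 intensity minus the mean of that row over the 4 arrays (blue below, red above). The column at 2 h is mostly blue and the column at 4 h mostly red, with Sf3b3, Prpf38b and Sf3a2 (92197_r_at) among the rows that go the other way at 2 h.

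Markers of CA1 pyramidal neurons also differed between the arrays. Summed over the 9 probe sets of the list, they read 11328, 12196, 13938 and 13664 at 1, 2, 4 and 6 h. Neurod6, a transcription factor of these neurons, read 768, 648, 1263 and 1089, and Wfs1, an endoplasmic reticulum protein that marks CA1, read 1709, 1637, 2608 and 2205. Chosen after their values were seen, these are the 2 of 7 measured probe sets of the list that were lowest at 2 h. The lowest value of 4 others lay at 1 h and that of Pou3f1 (484, 455, 355 and 359) at 4 h, and 4 of the 7 were highest at 4 h. The list's median difference from the other times was −0.33 at 1 h and 0.03 at 2 h. The part of the share of pyramidal neurons in the differences among splicing genes was not tested.

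By at least 1.5-fold, 12 of 58 members above the floor on both arrays had more at 4 h than at 2 h, or 20.7%, beside 4.46% of all probe sets. A single member, Sf3b3, was lower by that much, or 1.72%, beside 6.95% of all. The 12 came from all role groups, 3 of 8 among the snRNP proteins, 3 of 13 among the SF3 and U2AF subunits, 1 of 7 among the Prpf factors, 2 of 12 among the SR proteins and 3 of 18 among the hnRNPs. Only 4 of the 12 had a mean intensity of at least 500, namely Srsf5, U2af1l4, Sf3a3 and Sf3b2, so most were dim. Prpf19 counts through its dim 162235_f_at (1.57-fold), while its brighter 97395_at was 1.16-fold higher. Snrpb2 counts through 92839_f_at, while its brighter 162026_r_at was lower at 4 h (0.80-fold). These 2 counted probe sets, and 162091_f_at of Sf3b2, carry a suffix that marks shared or incomplete oligonucleotides.

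**Figure D3:**
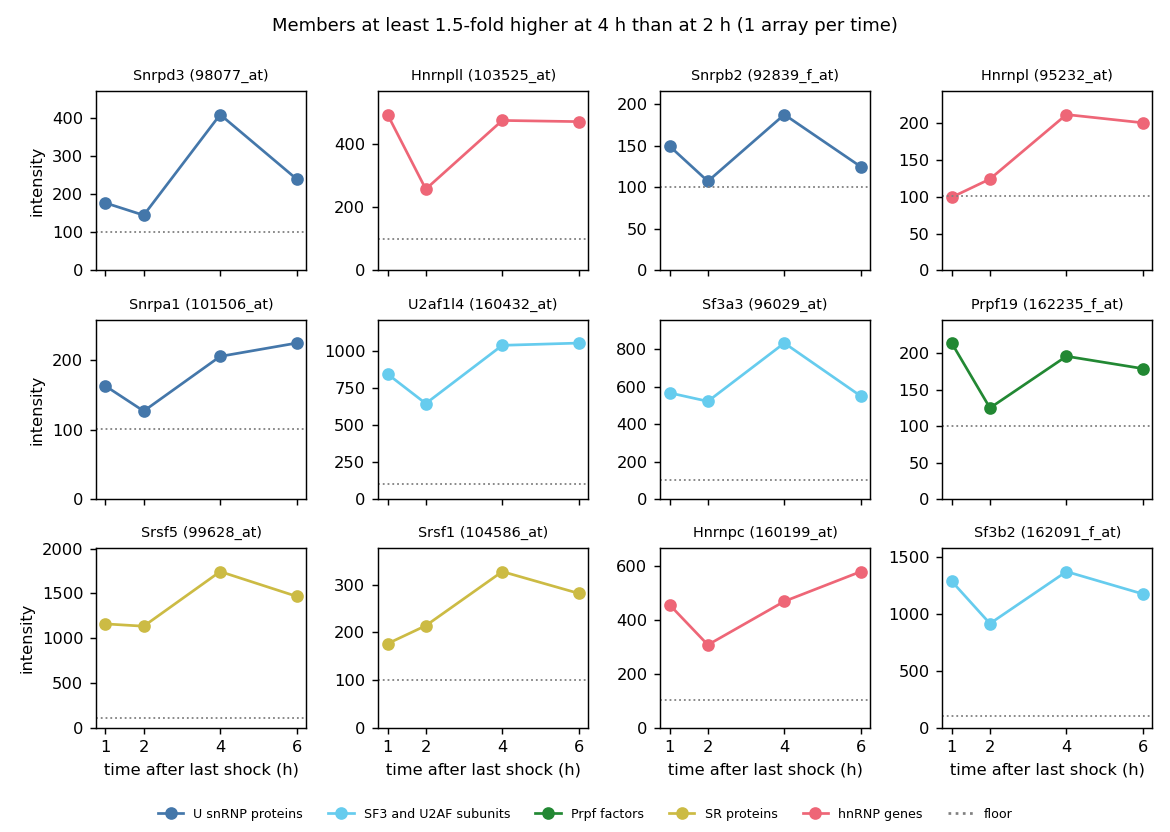
Each panel gives the intensity (linear scale from 0) of a probe set against the hours after the last shock, 1 point per array, for the 12 members at least 1.5-fold higher at 4 h than at 2 h, with the floor as a dotted line. Snrpd3 and Sf3a3 peak at 4 h, Hnrnpll dips at 2 h alone, and Srsf1 and Hnrnpl were lowest at 1 h.

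The start regions of the members with the largest ratio of 4 h to 2 h are shown because a probe set of each read higher at 4 h, although the brighter probe set of Snrpb2 went the other way, at 449 and 357. Windows of 250 bases before to 50 after the start, from RefSeq (GRCm38.p6), matched 46 of the 51 genes. Hnrnpll, U2af2, Sf3b5, Snrpb and Hnrnpul2 had none in the table. Capitals mark matches, on either strand, to the ETS motif CCGGAAG, the CCAAT box CCAAT, the TATA box TATAAA or to TGACG, the core of the cAMP response element, which also lies within the full element TGACGTCA.
Snrpd3, chr10:75517792-75518091, plus strand: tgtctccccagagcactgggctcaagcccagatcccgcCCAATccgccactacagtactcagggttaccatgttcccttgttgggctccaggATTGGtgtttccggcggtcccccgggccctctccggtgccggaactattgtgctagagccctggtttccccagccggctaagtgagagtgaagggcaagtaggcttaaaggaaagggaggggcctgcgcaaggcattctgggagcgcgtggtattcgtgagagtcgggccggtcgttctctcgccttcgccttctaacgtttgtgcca
Hnrnph2, chrX:134600929-134601228, plus strand: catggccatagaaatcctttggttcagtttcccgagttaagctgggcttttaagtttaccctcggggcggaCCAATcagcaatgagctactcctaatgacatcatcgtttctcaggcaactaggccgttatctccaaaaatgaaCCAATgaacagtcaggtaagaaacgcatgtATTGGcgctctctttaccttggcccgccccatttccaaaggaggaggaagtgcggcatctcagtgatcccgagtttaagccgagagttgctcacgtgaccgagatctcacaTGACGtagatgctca
Snrpb2, chr2:143062819-143063118, plus strand: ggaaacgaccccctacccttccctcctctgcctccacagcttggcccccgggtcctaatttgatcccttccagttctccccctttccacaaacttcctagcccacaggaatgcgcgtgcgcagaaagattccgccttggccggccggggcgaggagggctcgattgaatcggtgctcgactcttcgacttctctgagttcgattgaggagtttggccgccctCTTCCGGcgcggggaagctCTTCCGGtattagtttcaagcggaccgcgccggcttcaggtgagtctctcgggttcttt
Hnrnpl, chr7:28810640-28810939, plus strand: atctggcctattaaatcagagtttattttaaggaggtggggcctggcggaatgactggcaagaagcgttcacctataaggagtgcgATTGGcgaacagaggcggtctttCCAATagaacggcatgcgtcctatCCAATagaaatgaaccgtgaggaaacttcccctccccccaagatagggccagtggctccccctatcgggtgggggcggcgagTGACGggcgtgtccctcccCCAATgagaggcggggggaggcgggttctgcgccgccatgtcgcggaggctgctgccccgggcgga

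The window of Snrpb2 held the ETS letters 2 times, those of Snrpd3, Hnrnph2 and Hnrnpl held CCAAT boxes, those of Hnrnph2 and Hnrnpl also TGACG, and none of the 4 held the TATA letters. Over all members, 34.5% of 58 windows held CCGGAAG, against 17.5% of 5297 windows of genes above the floor on all arrays and 8.86% of all 32851 windows. The core element TGACG was in 55.2% of the members' windows, against 31.9% and 20.8%. The full element TGACGTCA, the site of the activity-regulated factor CREB, was in 1 of 58 members' windows, or 1.72%, against 3.06% and 1.79%. CCAAT was in 29 of the 58, against 36.7% and 37.4% of the other sets, and TATAAA in 8.62%, against 7.72% and 13.6%. In the 13 windows of 11 of the 12 genes higher at 4 h, CCGGAAG was found in 6, TGACG in 6, CCAAT in 8, and TATAAA and TGACGTCA in 0. A match of letters is a description and does not show that a factor binds.

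Among the U snRNP proteins, Snrpd3 stood apart. It encodes SmD3, a subunit of the Sm ring around most spliceosomal U RNAs, and read 177, 145, 408 and 239. The value at 4 h was 1.71-fold above that at 6 h, the next highest, and 2.82-fold above that at 2 h. Snrpd3 was the only member higher at a single time than at each other by at least 1.5-fold, 1 of 55 at 4 h, or 1.82%, where 0.222% of 5844 named probe sets were. The other Sm ring genes differed less between the arrays. Snrpe read 1253, 1311, 1454 and 1464, Snrpg read 1384, 1359, 1460 and 1374, and Snrpb read 9879, 7073, 7991 and 9665. Snrpg had its extremes at the same times as Snrpd3, while Snrpe was highest at 6 h and Snrpb at 1 h. Their ranges were 1.17-fold for Snrpe, 1.07-fold for Snrpg and 1.40-fold for Snrpb, against 2.82-fold for Snrpd3. This sets a dim probe set, at 145 to 408, beside bright ones, at 1253 or more. The part of intensity in the contrast was not tested. Raising the floor to the 60th percentile left 0 members apart high at 4 h, where 0.075% of named probe sets were.

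Other members belong to the U1 or the U2 particle alone. Snrpa1, the U2 protein A', read 163, 127, 206 and 225, lowest at 2 h and 1.77-fold higher at 6 h. Snrpc, the U1 protein that helps hold the 5' splice site, read 1059, 1228, 1283 and 1040. Snrpb2, the U2 protein B'', was read by probe sets that disagreed, at 149, 107, 187 and 125 for 92839_f_at and at 286, 449, 357 and 366 for 162026_r_at. The former was lowest at 2 h and the latter highest there. Of the 8 snRNP probe sets measured, 5 were lowest at 2 h (26.7% of all probe sets) and 4 highest at 4 h (23.1% of all).

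SF3 subunits and U2AF recognise the branch point and the 3' splice site. Of their 13 probe sets, 7 were highest at 4 h (53.8%, beside 23.1% of all). Lowest at 2 h were 4 (30.8%), near the 26.7% of all, and lowest at 1 h were 5 (38.5%, beside 22.8%). Sf3a3, a subunit of the complex that joins the U2 particle to the branch point, read 567, 522, 833 and 549.8. Its value at 4 h was 1.47-fold above the next highest, at 1 h, and the other 3 values lay within 522 to 567. Sf3b1, which holds the branch point, read 940, 1056, 1242 and 1083, highest at 4 h like its second probe set at 360, 336, 379 and 298. Sf3b2 read 1285, 914, 1371 and 1174, lowest at 2 h.

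Sf3b3 took the opposite course, at 237, 438, 227 and 312. It encodes a scaffold subunit of the SF3b complex and its value at 2 h was 1.93-fold that at 4 h. Sf3a1 read 256, 335, 351 and 380.2, lowest at 1 h. The small subunits Sf3b5 and Sf3b6, the latter beside the branch point adenosine, read 1680, 1816, 1920 and 1707, and 1783, 1841, 2072 and 2002, both highest at 4 h with ranges of 1.14-fold and 1.16-fold.

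The U2AF genes differed among themselves. U2af1, the small subunit that reads the AG at the end of the intron, was highest at 1 h, at 794 against 614, 552 and 583. Its relative U2af1l4 read 842, 643, 1036 and 1051, lowest at 2 h and 1.61-fold higher at 4 h. U2af2, the large subunit that binds the pyrimidine tract, was steady at 6087, 5992, 6476 and 6428, a range of 1.08-fold.

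**Figure D4:**
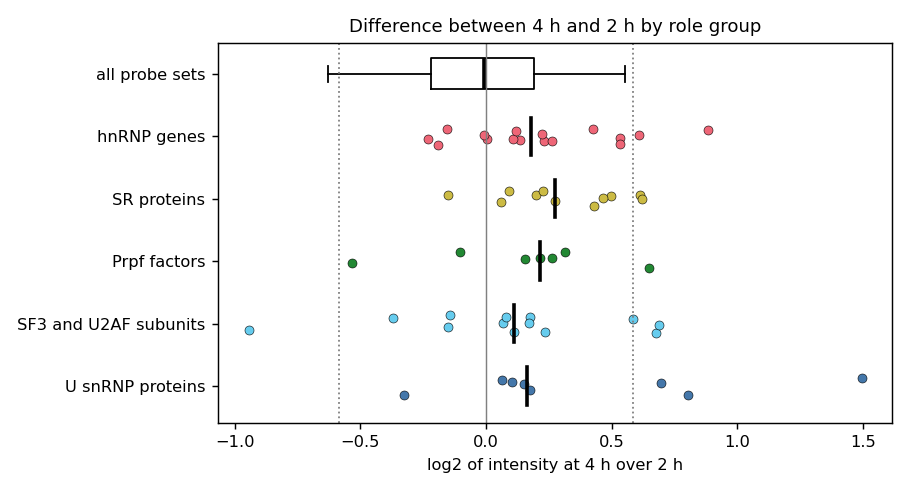
Points are probe sets above the floor on all 4 arrays, placed by the log2 of intensity at 4 h over 2 h and grouped by role, with a black bar at each group's median. The box gives all 6442 probe sets (quartiles, with whiskers at the 5th and 95th percentiles), dotted lines mark 1.5-fold, and most points of each group lie to the right of 0.

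Many Prpf factors act in the later steps of assembly and catalysis. Of their 7 measured probe sets, 4 were lowest at 2 h (57.1%, beside 26.7% of all). Prpf19, a ubiquitin ligase of the active spliceosome, read 1758, 1242, 1442 and 1339, and its dimmer probe set 162235_f_at read 214, 125, 196 and 179. Both were highest at 1 h and lowest at 2 h. Prpf8, the scaffold of the catalytic centre, read 2541, 2391, 2970 and 2643, highest at 4 h with a range of 1.24-fold. Prpf31, a protein of the U4/U6 particle, read 209, 182, 218 and 217, and Prpf38a read 343, 358, 399 and 316.

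Prpf38b went the other way, at 189, 223, 154 and 122, highest at 2 h and 1.82-fold lower at 6 h than at 2 h. Prpf6, which bridges the particles of the tri-snRNP, was steady at 1402, 1387, 1289 and 1292. The kinase gene Prpf4b and both probe sets of Prpf39, a U1-associated factor, were below the floor on all 4 arrays.

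Among the SR proteins, 8 of 11 probe sets were lowest at 2 h and 10 of 11 had more at 4 h than at 2 h, where 26.7% and 48.4% of all probe sets above the floor on all arrays did. Their median difference between 4 h and 2 h was 0.27 (log2), where the median over all probe sets was −0.02. Srsf5 read 1158, 1132, 1742 and 1466, with both later values above both earlier ones. Srsf11 read 1021, 982, 1388 and 1047, so that 4 h alone was high, 1.33-fold above the next. Srsf1, the founding member of the family, read 176, 214, 328 and 282, again with both later values above the earlier ones. Its other 3 probe sets never passed the floor, and the gene rests on 1 dim probe set.

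Srsf3, the smallest SR protein, was read by 2 probe sets with the same extremes, at 360.2, 258, 347 and 306 and at 394, 275, 315 and 341, both highest at 1 h and lowest at 2 h. Srsf6 had the same extremes, at 1072, 875, 933 and 915. Srsf9 read 672, 636, 744 and 814. For Srsf2 the probe sets had opposite orders but small ranges, at 3937, 4430.4, 3988 and 4343 and at 565, 520.2, 629 and 546. Srsf4 read 583, 662, 689.8 and 658 on 104754_at and 292, 202, 279 and 239.8 on 102093_f_at, lowest at 1 h on the former and at 2 h on the latter. Of the Srsf10 probe sets, 98048_at was above the floor at 2, 4 and 6 h, at 137, 112 and 106, and 102046_at at 2 h alone, at 120.0.

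Among the hnRNPs, Hnrnpll stood apart at 2 h. It encodes a relative of hnRNP L that represses exons, known from lymphocytes, and read 493, 257, 474 and 470.4. The 3 values at the other times lay within 470.4 to 493, and the value at 2 h was 1.83-fold below the lowest of them. Hnrnpll was the only member lower at a single time than at each other by at least 1.5-fold, 1 of 55 at 2 h, or 1.82%, close to the 1.13% of named probe sets. Hnrnph2, a binder of G-rich runs, read 205, 91.1, 248 and 199, below the floor at 2 h alone, so that 4 h was at least 2.46-fold higher than 2 h.

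Other hnRNPs were lowest at 2 h by less. Hnrnpc, which binds uridine tracts of nascent transcripts, read 457, 308, 469.6 and 580.4, with 2 h 1.48-fold below the next lowest. Hnrnpk, a binder of cytidine-rich RNA, read 843, 612, 885 and 870.5, with 2 h 1.38-fold below the next. Hnrnpdl read 2654, 2213, 3203 and 3025, and its probe set 96084_at had the same order at 861, 712, 958 and 951. Hnrnpr read 701, 584, 700.3 and 854, Hnrnph1 1906, 1707, 2003 and 2017, and Hnrnph3 614, 520.0, 607 and 613. Of the 16 hnRNP probe sets above the floor on all arrays, 8 were lowest at 2 h (26.7% of all probe sets). Highest at 4 h were 6 of the 16 (37.5%, beside 23.1% of all).

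Other hnRNP genes were instead lowest at 1 h or at 6 h. Of the 16 probe sets above the floor on all arrays, 2 were lowest at 1 h (12.5%, beside 22.8% of all). Lowest at 6 h were 5 of the 16 (31.2%, beside 26.2% of all), among them those of Hnrnpd and Hnrnpm, given below. Hnrnpl, known for exons with CA repeats, read 99.5, 124, 212 and 201, below the floor at 1 h. Hnrnpu, a nuclear matrix protein, read 114, 189.8, 170.3 and 213, with 1 h 1.49-fold below the next lowest, and its second probe set was below the floor on all arrays. Hnrnpab read 981, 693, 762 and 616, highest at 1 h and lowest at 6 h. Hnrnpul2 read 669, 912, 799 and 580.2, and 378, 381, 324 and 290.1 on its second probe set, both highest at 2 h and lowest at 6 h. Hnrnpa1, the founding member of the family, read 142, 122, 117 and 32.2, below the floor at 6 h.

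Several members hardly differed between the arrays. Hnrnpa2b1, a carrier of neuronal RNAs, read 2170.3, 2216, 2222 and 2208, a range of 1.02-fold, and its dim second probe set read 133, 129.7, 129 and 155. The next smallest ranges were those of Snrpg, U2af2, Prpf6, Hnrnpm (1482, 1370, 1488 and 1351) and Sf3a2 on 92196_f_at (2521, 2594, 2346 and 2492), at most 1.11-fold. Hnrnpd, or AUF1, a factor that speeds the decay of AU-rich messages, read 709, 699, 753 and 659. In all, 14 of 55 members had a range under 1.2-fold and 18 one of at least 1.5-fold. The latter is 32.7%, near the 27.9% of all probe sets. A single member, Snrpd3, reached 2-fold, where 6.33% of all did. The median range was 1.40-fold against 1.32-fold over all.

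Where a gene had 2 probe sets above the floor on all arrays, they often gave different courses. Of 10 such genes, 6 had the same time of the highest value on both, 4 the same time of the lowest, and 7 the same sign between 2 h and 4 h. Hnrnpdl, Hnrnpul2, Prpf19 and Srsf3 shared both extremes. Snrpb2 and Srsf2 went opposite ways between 2 h and 4 h, as did Hnrnpa2b1, whose ratio of 4 h to 2 h was 1.00 on both. Sf3a2 read 1594, 3055, 2361 and 2879 on 92197_r_at, 1.92-fold higher at 2 h than at 1 h, while 92196_f_at had a range of 1.11-fold. Both probe sets of Snrpb2, of Srsf2 and of Sf3a2 carry a suffix (f, r or s) that marks shared or incomplete oligonucleotides, as do 17 of the 70 members in all.

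**Figure D5:**
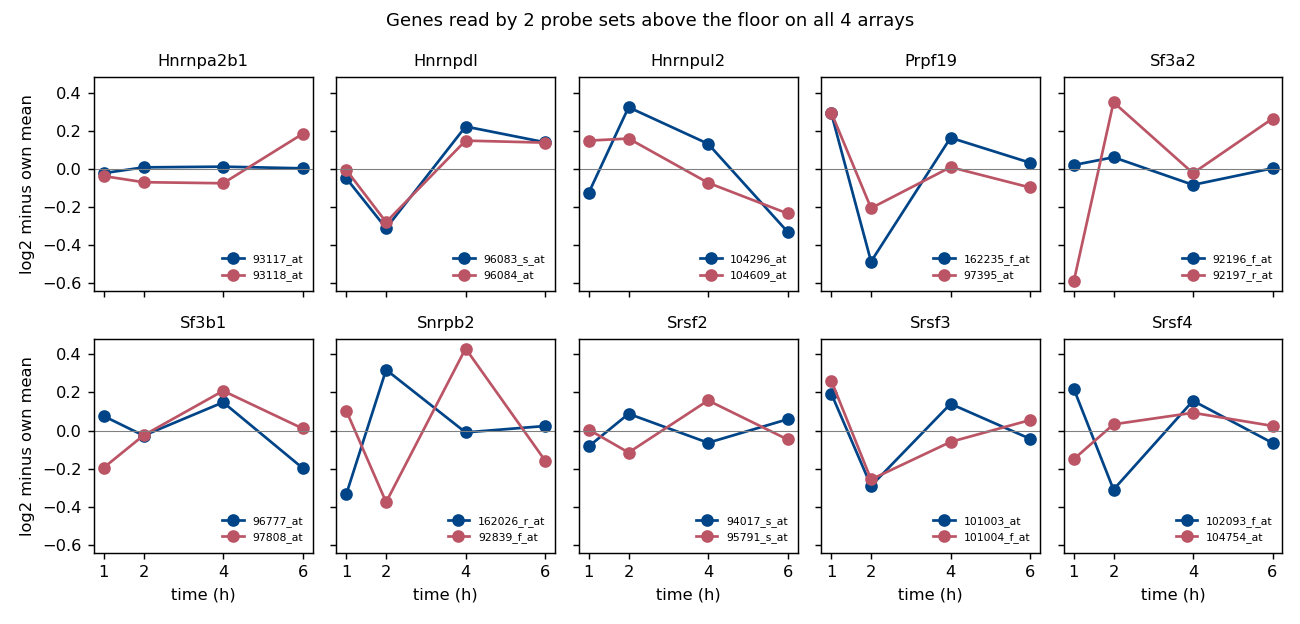
Each panel is a gene with 2 probe sets above the floor on all 4 arrays, and each line a probe set, as log2 intensity minus its own mean over the 4 arrays against hours after the last shock. The lines of Hnrnpdl and Srsf3 run together with a minimum at 2 h, while those of Snrpb2 and Sf3a2 part by more than the other pairs.

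Between the other pairs of times, fewer members differed by at least 1.5-fold. From 1 h to 2 h, 4 of 56 were higher (7.14%, beside 5.59% of all probe sets), namely Sf3a2 on 92197_r_at, Sf3b3, Hnrnpu and Snrpb2 on 162026_r_at. Hnrnpll and Prpf19 on 162235_f_at were lower there, 2 of 56 (3.57%, beside 4.84%). From 1 h to 4 h, Snrpd3, Srsf1 and Srsf5 were higher, 3 of 57 (5.26%, beside 3.38%), and 0 were lower (5.33% of all).

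At 6 h against 1 h, Sf3a2 on 92197_r_at, Hnrnpu and Srsf1 were higher, 3 of 56 (5.36%, beside 3.76%), and Hnrnpab and Prpf38b lower, 2 of 56 (3.57%, beside 5.82%). At 6 h against 2 h, 6 of 57 were higher (10.5%, beside 4.59%), namely Hnrnpc, Hnrnpll, Snrpa1, Snrpd3, U2af1l4 and Hnrnpl, and Prpf38b and Hnrnpul2 were lower, 2 of 57 (3.51%, beside 7.12%). At 6 h against 4 h, 0 of 58 were higher (3.93% of all), and Snrpd3, Sf3a3 and Snrpb2 on 92839_f_at were lower, 3 of 58 (5.17%, beside 4.12%). These comparisons share arrays, so a low value at 2 h enters several of them. At a single time against each other array, 0 members stood apart at 1 h (0.599% of named probe sets higher and 0.958% lower), 0 higher at 2 h (1.10%), 0 lower at 4 h (1.01%), and 0 at 6 h (0.291% and 1.08%).

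In lowest values at 2 h, other splicing machinery and regulators outside the naming rule lay nearer to all probe sets than the members did. Their shares highest at 4 h lay between those of all probe sets and of the members. These differences from the members were not tested. Of other parts of the machinery, such as the Lsm ring, helicases and exon junction proteins, 12 of 44 measured probe sets were lowest at 2 h (27.3%) and 14 highest at 4 h (31.8%), beside 26.7% and 23.1% of all. Between 2 h and 4 h, 3 of 45 differed upward by at least 1.5-fold (6.67%) and 4 downward (8.89%). Both are near the 4.46% and 6.95% of all probe sets. Cdc5l, a partner of Prpf19, read 325, 177, 302 and 192, Aqr, an intron-binding helicase, read 530.3, 360.3, 582 and 554, and Wbp4 read 466, 398, 669 and 554. These 3 genes were named after their values were seen, and the second probe set of Cdc5l read 726, 631, 728 and 649.9. In the opposite direction, Luc7l, a U1-associated factor, read 351, 487, 124 and 228, and Cwc22 read 171, 366, 234 and 176. Sf1, the first reader of the branch point, read 277, 275, 121 and 228 on 161894_r_at. Crnkl1, another core factor, read 441, 333, 293 and 197.

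Splicing regulators outside both families included Celf2, Celf4, Elavl2, Elavl3, Elavl4, Mbnl1 and Rbfox2. Of their 40 measured probe sets, 9 were lowest at 2 h (22.5%, beside 26.7% of all). Highest at 4 h were 15 of the 40 (37.5%, beside 23.1% of all). Their median difference between 4 h and 2 h was −0.01. Ptbp2, a neuronal repressor of exons, was the 1 of 41 at least 1.5-fold higher at 4 h than at 2 h (2.44%, beside 4.46% of all). It read 259, 173, 290.3 and 295. Rbfox2 read 670, 652, 292 and 798 on 161758_r_at, low at 4 h. Esrp2 and Ptbp3 were lower at 1 h than at each later time, at 103 against 155 to 241 and at 114 against 188 to 207. Rbm6 read 101, 177, 120.1 and 139.

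Kinases that phosphorylate SR proteins were taken with Top1. Of the 8 measured probe sets, 3 were lowest at 2 h (37.5%, beside 26.7% of all) and 0 highest at 4 h (23.1% of all). Another 3 of the 8 were lowest at 4 h (24.3% of all), and 3 were highest at 2 h (28.7% of all). Srpk1 read 594, 312, 372 and 432, highest at 1 h. Clk4 read 285, 171, 254 and 197 on 101936_at, lowest at 2 h, and its second probe set was below the floor at that time. Clk2 read 465, 413, 503 and 534, and Srpk2 124, 164, 123 and 159.

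Members without a measured course were dim. Below the floor on all arrays were single probe sets of Hnrnpab, Hnrnpdl, Hnrnpu, Prpf4b and Snrpb, both of Prpf39 and 3 of Srsf1. Those above it on some arrays were Hnrnpa1, Hnrnph2, Hnrnpl and both of Srsf10. A value below the floor does not show that the message was absent.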

How the data were processed

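Hybridisation of CA1 total RNA to Affymetrix MG-U74Av2 arrays gave 1 table of 12488 probe sets for each of 4 samples. The deposited values are intensities per probe set on a linear scale, scaled by the authors to a common trimmed mean of 500.3, as the values show; the software is not given in the sources used here. In this re-analysis, 66 control probe sets were left out, each array was set to the same mean without the outer 2% at each end (factors 0.999 to 1.001), and values under the floor of 100.8 (40th percentile) were raised to it before log2. Symbols came from the platform annotation, and all 70 members matched RefSeq by gene ID. Times were compared by ratio, with 1.5-fold as the limit, beside the same counts over all probe sets. A time stood apart where it differed by that much from each other time. The number of arrays limits the precision, and no test was possible. Genes given in full were those apart at a time, the 4 of each role group with the largest range, the 6 members with the smallest, and genes with several probe sets. The members and lists were chosen with earlier results of these data known. Alternatives changed the scaling, the floor, the limit, the probe sets kept and the arrays kept. Scripts ran in Python 3.11.15 with pandas 2.3.3 and NumPy 2.4.6, figures were drawn in matplotlib 3.10.9, and the counting was tested on simulated data.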

Additional observations from a re-analysis of the deposited data

How the results depend on the processing

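The members' medians at 2 h stayed below 0 (−0.24 to −0.08) and those at 4 h above 0 (0.08 to 0.17) under the alternatives run. With common median scaling, the −0.24 at 2 h and 0.17 at 4 h stood beside −0.07 and 0.04 over all probe sets. Without the 6 h array, the members' median at 4 h was also 0.17, beside −0.02. Each of the 12 probe sets at least 1.5-fold higher at 4 h than at 2 h kept that sign when read on its own. They were chosen by that same difference, so the kept sign is no separate support. The scalings moved the median of 4 h minus 2 h over all probe sets only between −0.01 and 0.09. The sign for Snrpb2 rests on 92839_f_at, because its brighter probe set 162026_r_at read 449 at 2 h and 357 at 4 h. Scaling to a common median moves the median difference of 6 h minus 2 h over all probe sets to 0.11, and then 33 of 55 members were lowest at 2 h, beside 36.7% of all, and 23 highest at 4 h, beside 28.1%. With each other array left out, so that 3 times remain, 30 to 35 members were lowest at 2 h, beside 33.6% to 34.4% of all, and 27 to 33 highest at 4 h, beside 30.7% to 32.1%. The counts past 1.5-fold depended more on the settings, and the cause was not tested. A count without a share of all probe sets beside it does not by itself show a result about the members. With common median scaling, 2 members stood apart low at 1 h (1.09% of named probe sets) and 3 low at 2 h (1.59%). There, 6 of 57 had more at 4 h than at 1 h (4.71% of all). The separate counts lower at 6 h were 1 against 1 h (4.29% of all), 1 against 2 h (5.2%) and 1 against 4 h (3.92%). With quantile normalization, 1 stood apart low at 1 h (1.08% of named probe sets) and 3 low at 2 h (1.49%). There, 1 of 56 was lower at 6 h than at 1 h (4.97% of all) and 1 of 58 than at 4 h (4.03%). With the floor at the 20th percentile, 2 stood apart low at 2 h (2.94% of named probe sets) and 2 low at 6 h (3.15%). Against 1 h, 5 were higher and 1 lower at 4 h, and 5 higher and 4 lower at 6 h. Against 2 h, 3 were lower at 4 h and 4 at 6 h, and against 4 h, 1 was higher and 5 lower at 6 h. In these pairs 7.97% to 14.4% of all probe sets differed by as much. With the floor at the 60th percentile, 0 stood apart low at 2 h (0.25% of named probe sets) or high at 4 h (0.075%). Against 1 h, 2 were higher (1.98% of all) and 0 lower (2.32%) at 2 h. Also against 1 h, 1 was higher (1.68%) at 4 h, and 1 higher (1.66%) and 1 lower (2.52%) at 6 h. Against 2 h, 5 of 42 were higher (2.52% of all) and 0 lower (2.84%) at 4 h. At 6 h, 2 were higher (2.44%) and 1 lower (2.76%) than at 2 h, and 1 lower (1.58%) than at 4 h. With plain probe sets only, the counts from 1 h to 2 h were 2 higher (4.97% of all) and 1 lower (4.9%). With 1 probe set a gene, 1 was lower there (4.64%). With the mean over the probe sets of a gene, 1 stood apart low at 6 h (1.22% of all). Against 1 h, 1 was higher at 2 h (5.82%), 2 lower at 4 h (5.63%) and 0 higher at 6 h (3.69%). From 2 h to 4 h, 2 were lower (6.8%). With a limit of 1.3-fold, 3 stood apart low at 1 h (2.40% of all), 1 high (3.47%) and 5 low (3.23%) at 2 h, and 3 high at 4 h (1.18%). Against 1 h, 13 were lower at 2 h (11.7% of all), 9 higher (9.48%) and 1 lower (12.2%) at 4 h, and 7 higher (9.87%) and 5 lower (13.8%) at 6 h. Against 2 h, 2 were lower at 4 h (14.8%), and 13 higher (11.5%) and 4 lower (15.4%) at 6 h, and against 4 h, 1 was higher (10.3%) and 5 lower (10.4%) at 6 h. With a limit of 2-fold, 1 was higher at 4 h than at 1 h (0.552% of all) and 1 than at 2 h (0.8%). In the other counts named so far, 0 remained. With a mean intensity of at least 500, an alternative chosen after seeing the data as were the counts of extremes, 19 of 35 were lowest at 2 h (29.6% of all) and 4 higher at 4 h than at 2 h (2.79%). There, 0 stood apart low at 2 h (0.39% of named probe sets) or high at 4 h (0.0976%). The separate counts higher than at 1 h were 1 at 2 h (1.38% of all), 1 at 4 h (1.71%) and 1 at 6 h (1.56%). Against 1 h, 0 were lower at 2 h (2.12% of all) and 1 at 6 h (2.12%). Against 2 h, 0 were lower at 4 h (1.91%), and 1 was higher (2.59%) and 1 lower (1.97%) at 6 h. Against 4 h, 1 was lower at 6 h (1.41%). With each other array left out, 0 to 2 stood apart low at 1 h (1.43% to 1.47% of named probe sets). At 2 h, 0 to 1 were high (2.0% to 2.47%) and 1 to 6 low (1.74% to 2.08%). At 4 h, 1 to 3 were high (0.638% to 0.832%), and at 6 h, 0 to 1 were low (1.64% to 2.37%). The count low at 2 h was 6 without the 1 h array and 2 without the 6 h array, and that high at 4 h was 3 without either. Signal over background limits the dim genes, among them Snrpd3, Snrpa1, Snrpb2 and Hnrnpl. No paired analysis was possible because each time has 1 array.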
